A study of Mus musculus with 14 samples.

Results

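The cell cycle and proliferation genes of the mouse left ventricle were examined, 46 of the 49315 genes in the count table, found in it by gene symbol from a fixed list of names. The set holds 31 genes of the G2 and M phases (G2/M), 10 genes of DNA replication and 5 genes of the passage from G1 into S phase (G1/S). All 46 were in the table, and all 46 passed the filter on low counts that left 15292 genes for testing.

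A cell that divides runs through a fixed order of steps. D-type and E-type cyclins drive it from G1 into S phase, where E2F factors switch on the genes that load the replicative helicase and supply nucleotides. Before mitosis, cyclins A and B with the kinase Cdk1 rise, and with them the Aurora and Polo kinases, the proteins of centromere and kinetochore, the motors of the spindle and the machinery that ends mitosis. The adult mouse heart is known for cardiomyocytes that rarely divide, while fibroblasts, endothelial cells and immune cells of the heart can proliferate.

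The study compared wild-type (WT) mice with HCN4F knock-in mice, in which a tyrosine of the pacemaker channel HCN4 is replaced by phenylalanine in exon 4 of the Hcn4 gene, a change made to raise channel activity. The sources used here do not state the zygosity of the allele. Male mice were operated at an age of 10 to 12 weeks, with either Sham surgery or transverse aortic constriction (TAC), which narrows the aorta and loads the left ventricle with pressure. Polyadenylated RNA of left ventricular tissue was sequenced 5 weeks later, from 4 WT-Sham, 4 HCN4F-Sham, 2 WT-TAC (replicates 2 and 3) and 4 HCN4F-TAC libraries. The study's methods describe 16 samples, 4 in each group. The count table holds 2 more columns with WT-TAC names, which match none of the samples given and were not used here. The study's methods call the libraries of a group biological replicates. Each library title holds a number of its own, and the labels do not say whether it names an animal.

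Library totals ran from 22309914 to 35210939 counts on genes (median 27676182), of which mitochondrial genes took 13.9 to 23.1%. Levels are given as CPM, a gene's counts scaled to a common library size after TMM normalization. The limit that a count of 0 allows, 3 counts, came to 0.0859 to 0.137 CPM over the libraries and covers counting error only. Heart muscle was marked by 7 of 7 cardiomyocyte markers, which summed to 50327 to 70202 CPM. They cannot check which chamber the tissue came from. HCN4F-TAC replicate 2 stood apart by Myl7, the atrial myosin light chain, at 9.91 CPM there and at most 0.694 CPM in every other library. The gap was smaller over a list of 6 atrial markers, which summed to 70.8 CPM there and to 44.8 CPM in HCN4F-Sham replicate 3. Of the 4 tested, Tbx5 alone was lower after TAC in HCN4F hearts (log2 fold change -0.76). In HCN4F-TAC replicate 2 the 5 erythroid markers summed to 365 CPM, against 98.9 to 157 CPM in the rest of its group and at most 221 CPM in any other library. The knock-in changes an amino acid, which counts per gene do not show, so they cannot check the genotype. Hcn4 was at 8.07 to 10.6 CPM in WT-Sham, 6.36 to 13.0 CPM in HCN4F-Sham, 11.9 and 13.5 CPM in WT-TAC and 3.49 to 9.07 CPM in HCN4F-TAC. After TAC all HCN4F libraries were thus below both WT libraries, as in 11.0% of all tested genes.

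The members covered a wide span of levels. Divided by exon length, Ccnd2 had the highest level over all libraries (20.1 CPM per kb), before Ccnd1 (12.7 CPM per kb), Pcna (11.3 CPM per kb) and Cenpa (4.26 CPM per kb). The kinase Ttk of the spindle checkpoint had the lowest level per length (0.0598 CPM per kb) and rested on 3 to 14 counts in a library. Mki67, the gene of the Ki-67 antigen by which dividing cells are commonly stained, reached 0.678 CPM per kb, and Top2a, the topoisomerase that untangles sister chromatids, 0.448 CPM per kb. Counts differed widely among the mitotic genes: Hmmr had 5 to 46 counts in a library and Cdk1 had 15 to 92, while Cenpa had 504 to 829 and Cenpf 102 to 999.

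The question put to these genes was whether their levels differed with pressure overload or with genotype. Averaged by group, 40 of the 46 members had their highest mean in HCN4F-TAC and 39 had their lowest mean in WT-Sham. Among all tested genes, HCN4F-TAC held the highest group mean of 27.3% and WT-Sham the lowest of 27.6%. These counts are not 46 separate observations, since many members moved together across libraries. In 30 of 31 G2/M members HCN4F-TAC replicates 1 and 4 were above the rest of that group, against 15.0% of all tested genes. The same limit holds for the counts and shares of members in each comparison below. Few differences of single members passed the test. A gene was called where edgeR's adjusted p was under 0.05 and its log2 fold change above 1 or below -1. In all, 2 members were called: Hmmr rose and Cenpf fell after TAC in HCN4F hearts. Of all tested genes, 1.58% were called higher and 1.16% lower in that comparison. A change in the number of cells of a dividing type and a change in RNA per cell, in either direction, cannot be told apart in RNA from whole tissue.

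**Figure D1:**
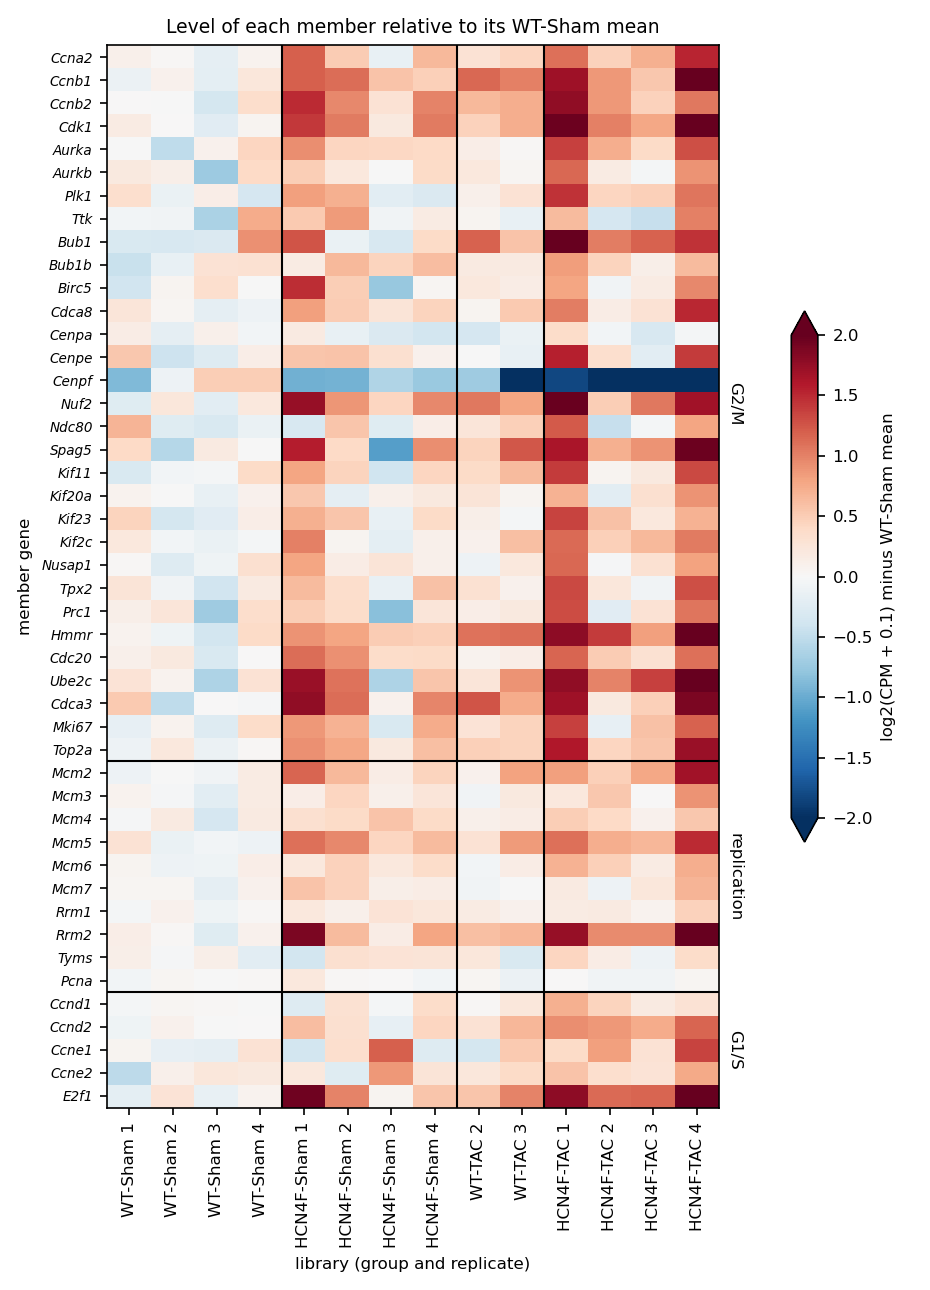
Level of the 46 members (rows, by class) in the 14 libraries (columns, by group), as log2(CPM + 0.1) minus the mean of the WT-Sham libraries. Red is above that mean and blue below it, and the scale ends at -2 and 2. HCN4F-TAC replicates 1 and 4 and HCN4F-Sham replicate 1 are red in most G2/M rows, and Cenpf is blue in every library outside WT-Sham.

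Hmmr encodes a microtubule-binding protein of the mitotic spindle that is also a receptor for hyaluronan. Its levels were 0.296, 0.254, 0.191 and 0.392 CPM in WT-Sham replicates 1 to 4 and 0.602, 0.548, 0.434 and 0.423 CPM in HCN4F-Sham replicates 1 to 4. After TAC they were 0.698 and 0.716 CPM in WT and 1.2, 0.889, 0.565 and 1.87 CPM in HCN4F replicates 1 to 4. Every library of the other groups was above every WT-Sham library, while HCN4F-TAC replicate 3 lay within the range of the HCN4F-Sham group. Hmmr was 2.24-fold higher after TAC in HCN4F hearts (log2 fold change 1.16 ± 0.33, SE; edgeR adjusted p = 0.025), and DESeq2 on all groups also called it (adjusted p = 0.0196). With edgeR on the HCN4F groups alone it was not called (adjusted p = 0.0653). In WT hearts its log2 fold change was 1.29 ± 0.43 (SE, n = 2 against 4; edgeR adjusted p = 0.0943), which did not pass. With edgeR on the WT groups alone it was called (1.31, adjusted p = 0.034). These values rest on 5 to 46 counts. In HCN4F hearts the edgeR call was lost without HCN4F-Sham replicate 3 (adjusted p = 0.058) or 4 (adjusted p = 0.0689), and also when HCN4F-TAC replicate 1 (adjusted p = 0.0573) or 4 (log2 fold change 0.81, adjusted p = 0.102) was left out.

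Cenpf encodes a large protein that binds kinetochores and microtubules in mitosis. It stood at 12.5, 21.6, 32.7 and 32.6 CPM in WT-Sham replicates 1 to 4 and at 11.9, 12, 15.2 and 13.8 CPM in HCN4F-Sham replicates 1 to 4. The WT-TAC libraries held 14.2 and 5.32 CPM and the HCN4F-TAC libraries 6.47, 3.36, 5.58 and 5.53 CPM. All HCN4F-TAC libraries were below all HCN4F-Sham libraries, whereas WT-TAC replicate 2 and WT-Sham replicate 1 overlapped. Cenpf fell by 1.35 ± 0.36 (SE) on the log2 scale after TAC in HCN4F hearts (edgeR adjusted p = 0.0281). The call was lost without a filter on low counts (-1.34, adjusted p = 0.0716) and with a replicate block (-1.33, adjusted p = 0.0634). On the HCN4F groups alone it was called by edgeR (-1.35, adjusted p = 0.00122) and DESeq2 (-1.33, adjusted p = 1.58e-10). In WT hearts the log2 fold change was -1.37 ± 0.43 (SE), with an edgeR adjusted p of 0.0935 and a DESeq2 adjusted p of 0.0323, so that DESeq2 on all groups called it and edgeR did not. DESeq2 on the WT groups alone did not call it (adjusted p = 0.134). Leaving out WT-TAC replicate 2 gave -2.22 in WT hearts, and leaving out replicate 3 gave -0.81. Between genotypes its log2 fold changes were -0.91 ± 0.33 in Sham (SE, edgeR adjusted p = 0.228) and -0.88 ± 0.43 after TAC (SE, edgeR adjusted p = 0.429), the latter -0.034 without WT-TAC replicate 2 and -1.44 without replicate 3. Cenpf was the only member below 0 in all 4 comparisons, which share libraries and are not independent. Without HCN4F-TAC replicate 2, the library with the high Myl7, its log2 fold change in HCN4F hearts was -1.18 with an adjusted p of 0.0811. The call was also lost when HCN4F-Sham replicate 3 (0.0593) or 4 (0.0572) or HCN4F-TAC replicate 3 (0.0515) or 4 (0.0607) was left out.

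Ccnd2 encodes cyclin D2, a partner of the kinases Cdk4 and Cdk6 in G1. It was measured at 128, 144, 136 and 137 CPM in WT-Sham replicates 1 to 4 and at 209, 170, 121 and 184 CPM in HCN4F-Sham replicates 1 to 4. With TAC, WT hearts had 167 and 217 CPM and HCN4F hearts 260, 248, 227 and 306 CPM. Every HCN4F-TAC library was above every other library. Ccnd2 passed edgeR's adjusted p without reaching the fold needed for a call, with a log2 fold change of 0.61 ± 0.14 in HCN4F hearts after TAC (SE, adjusted p = 0.00909). This adjusted p stayed under 0.05 with each single library left out, up to 0.0308. In WT hearts the log2 fold change was 0.49 ± 0.17 (SE, edgeR adjusted p = 0.0981), and it was 0.29 without WT-TAC replicate 3 and passed with DESeq2 on all groups (adjusted p = 0.041) and on the WT groups alone with edgeR (adjusted p = 0.00911) and DESeq2 (adjusted p = 6.45e-05).

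**Figure D2:**
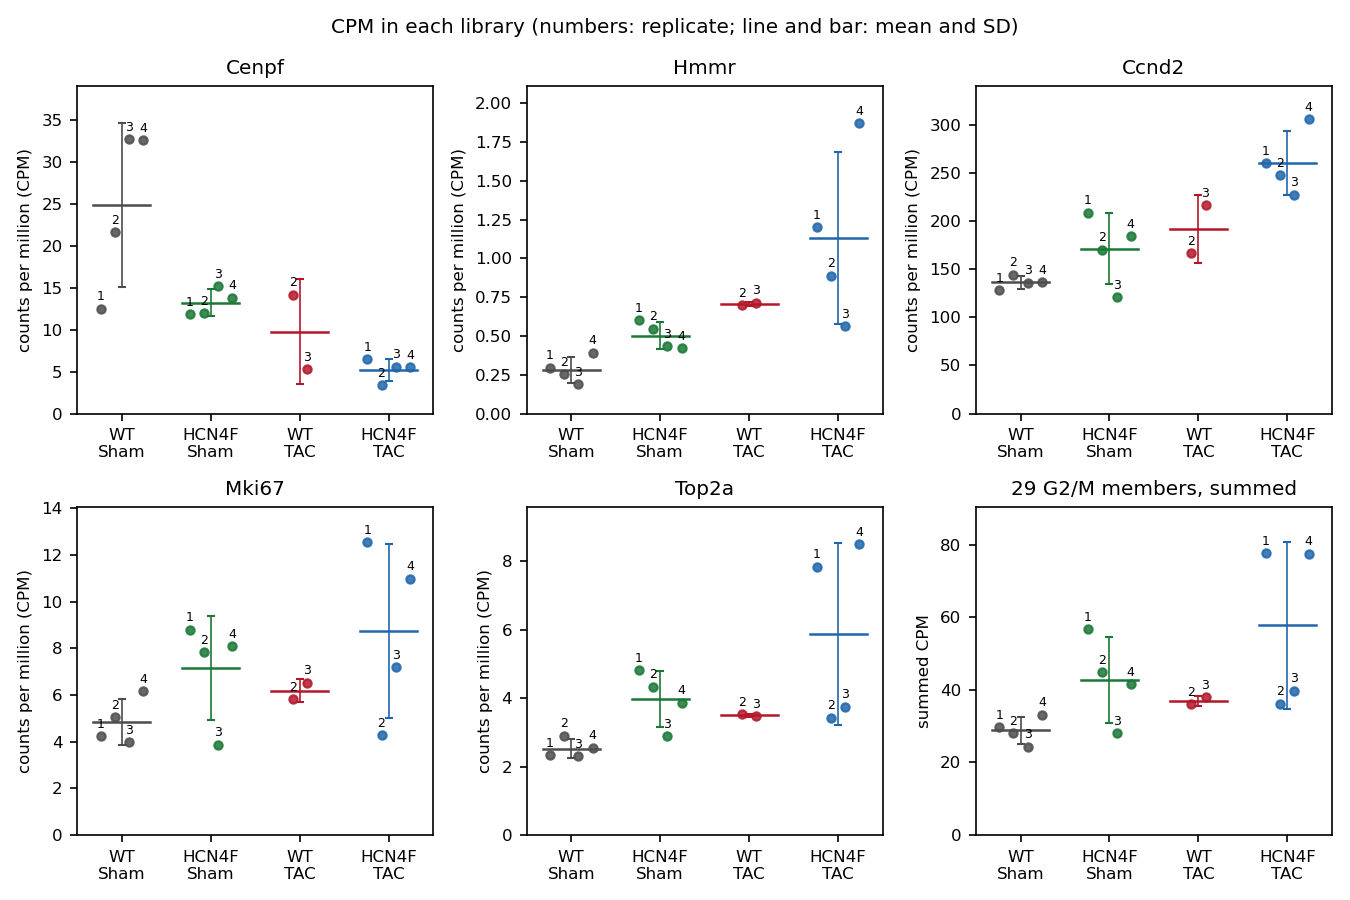
CPM of Cenpf, Hmmr, Ccnd2, Mki67 and Top2a, and the summed CPM of the 29 G2/M members other than Cenpa and Cenpf, in each library. Points are libraries with their replicate number, lines are group means and bars are SD. In HCN4F-TAC the sum lies at 77.7 and 77.6 CPM in replicates 1 and 4 and at 36.2 and 39.7 CPM in replicates 2 and 3.

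Mki67 and Top2a showed how uneven the libraries of a group were. Mki67 was at 4.25, 5.04, 3.98 and 6.17 CPM in WT-Sham replicates 1 to 4, at 8.81, 7.85, 3.87 and 8.09 CPM in HCN4F-Sham, at 5.83 and 6.53 CPM in WT-TAC and at 12.6, 4.28, 7.21 and 11.0 CPM in HCN4F-TAC. Top2a was at 2.33, 2.90, 2.29 and 2.55 CPM in WT-Sham, at 4.82, 4.34, 2.89 and 3.86 CPM in HCN4F-Sham, at 3.53 and 3.46 CPM in WT-TAC and at 7.84, 3.42, 3.74 and 8.50 CPM in HCN4F-TAC. HCN4F-TAC replicates 1 and 4 were the highest of all 14 libraries for both genes, and HCN4F-TAC replicate 2 lay among the WT-Sham libraries for Mki67. After TAC in HCN4F hearts the log2 fold change was 0.28 ± 0.31 for Mki67 (SE, edgeR adjusted p = 0.592) and 0.55 ± 0.26 for Top2a (SE, edgeR adjusted p = 0.174). Neither gene passed in any of the other comparisons.

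This split of the HCN4F-TAC group ran through the mitotic genes. In 30 of the 31 G2/M members both replicate 1 and replicate 4 were above replicates 2 and 3, with Cenpf as the exception. The same held for 7 of 10 replication members, for 3 of 5 G1/S members and for 15.0% of all tested genes. The order was looked for after the values had been seen. Summed over the 29 G2/M members other than Cenpa and Cenpf, whose high levels would otherwise carry the sum, HCN4F-TAC held 77.7, 36.2, 39.7 and 77.6 CPM in replicates 1 to 4. The WT-TAC libraries held 36.0 and 38.0 CPM, close to HCN4F-TAC replicates 2 and 3. A like pattern stood in HCN4F-Sham, at 56.8, 44.9, 28.0 and 41.5 CPM, where replicate 1 was the highest library in 26 of 31 G2/M members against 29.4% of all tested genes. WT-Sham was more even, at 29.7, 28.1, 24.3 and 33.1 CPM. The order of the groups depended on leaving out Cenpa and Cenpf, a choice made after the values were seen. Over the 29 members the mean sums were 28.8 CPM in WT-Sham, 42.8 CPM in HCN4F-Sham, 37.0 CPM in WT-TAC and 57.8 CPM in HCN4F-TAC. Over all 31 members they were 79.9 CPM in WT-Sham, 79.7 CPM in HCN4F-Sham, 69.0 CPM in WT-TAC and 89.3 CPM in HCN4F-TAC, so that the Sham groups were level and both WT-TAC libraries (70.9 and 67.1 CPM) lay below all WT-Sham libraries (71.1 to 90.8 CPM). HCN4F-TAC replicates 1 and 4 were still the highest over all 31, at 118 and 109 CPM against 64.7 and 66.2 CPM in replicates 2 and 3.

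Pcna differed least between the libraries of HCN4F-TAC, and Ndc80, a kinetochore gene, differed most (4.09-fold from lowest to highest). Within HCN4F-TAC the highest library exceeded the lowest 3.03-fold for Cdk1, the kinase that starts mitosis, 2.94-fold for Ube2c, which feeds the anaphase-promoting complex, and 2.94-fold for Mki67. Pcna encodes the sliding clamp of DNA polymerase. Its levels were 26.1 to 27.7 CPM in WT-Sham, 26.1 to 31.2 CPM in HCN4F-Sham, 27.8 and 24.8 CPM in WT-TAC and 25.7 to 27.7 CPM in HCN4F-TAC, and all groups overlapped. Cenpa, the histone H3 variant of the centromere, also had overlapping groups, at 23.1 to 28.9 CPM in WT-Sham, 20.3 to 29.7 CPM in HCN4F-Sham, 20.7 and 23.7 CPM in WT-TAC and 20.9 to 33.5 CPM in HCN4F-TAC.

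The promoters of the members were searched for motifs known from cell cycle genes. RefSeq promoter windows of assembly GRCm38.p6, from 250 bases before to 50 bases after the start of each gene, were found for 38 of the 46 members. They were searched on both strands for the CHR element (TTTGAA) and the CCAAT box (CCAAT), through which the MuvB and NF-Y complexes are known to act on mitotic genes, and for the E2F motif (TTTCCCGC, TTTCGCGC, TTTGCCGC or TTTGGCGC). Below are the 150 bases before the start of the called genes Cenpf and Hmmr, of Cdk1, Cdc20 and Top2a, which hold a CHR element before their start, and of the helicase subunit Mcm6, which holds E2F motifs, all 5′ to 3′ on the strand of the gene with motif letters in capitals. ATTGG and TTCAAA are the CCAAT box and the CHR element on the other strand, and GCGCGAAA is an E2F motif on the other strand, which in Mcm6 overlaps one on the gene's own strand. All 6 lie on the minus strand: Cenpf at chr1:189688087-189688236, Hmmr at chr11:40733438-40733587, Cdk1 at chr10:69352913-69353062, Cdc20 at chr4:118437344-118437493, Top2a at chr11:99024190-99024339 and Mcm6 at chr1:128359706-128359855.
Cenpf: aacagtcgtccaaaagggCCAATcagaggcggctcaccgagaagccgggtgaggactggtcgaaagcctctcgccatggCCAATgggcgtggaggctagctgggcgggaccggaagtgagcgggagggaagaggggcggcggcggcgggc
Hmmr: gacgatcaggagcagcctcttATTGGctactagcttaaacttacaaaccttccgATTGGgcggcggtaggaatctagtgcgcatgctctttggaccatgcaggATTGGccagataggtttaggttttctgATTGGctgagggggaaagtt
Cdk1: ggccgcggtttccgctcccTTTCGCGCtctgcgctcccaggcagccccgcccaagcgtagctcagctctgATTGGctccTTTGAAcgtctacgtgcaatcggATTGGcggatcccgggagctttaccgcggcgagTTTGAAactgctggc
Cdc20: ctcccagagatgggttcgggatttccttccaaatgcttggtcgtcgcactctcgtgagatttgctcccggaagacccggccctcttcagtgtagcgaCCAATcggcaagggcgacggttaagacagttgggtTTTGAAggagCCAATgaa
Top2a: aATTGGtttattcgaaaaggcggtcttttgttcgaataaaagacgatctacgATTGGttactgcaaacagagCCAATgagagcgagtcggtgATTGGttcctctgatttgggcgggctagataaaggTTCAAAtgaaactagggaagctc
Mcm6: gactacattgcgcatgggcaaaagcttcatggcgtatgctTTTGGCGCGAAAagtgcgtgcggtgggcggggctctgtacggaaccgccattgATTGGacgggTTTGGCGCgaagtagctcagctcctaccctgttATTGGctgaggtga

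Cdk1 holds all 3 motifs in these bases, Cdc20 and Top2a hold CHR elements and CCAAT boxes, and Cenpf and Hmmr hold CCAAT boxes here with their CHR element just after the start. Over the whole windows a CHR element was found in 21 of 27 G2/M members (77.8%), in 1 of 9 replication members (11.1%) and in 20.2% of the 27025 genes with a window. In 19 of those 21 genes it began no more than 30 bases before the start or after it. A CCAAT box was found in 22 of 27 G2/M members (81.5%), in 8 of 9 replication members (88.9%) and in 41.1% of all genes. The E2F motif was found in 4 of 9 replication members (44.4%), in 1 of 27 G2/M members, Cdk1, and in 2.60% of all genes. Searched on the strand of the gene alone, a CHR element was in 15 of 27 G2/M members and in 11.6% of all genes. In the 150 bases before the start alone it was in 8 of 27 and in 10.5%. A match of letters is a description of the sequence and not of bound protein.

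**Figure D3:**
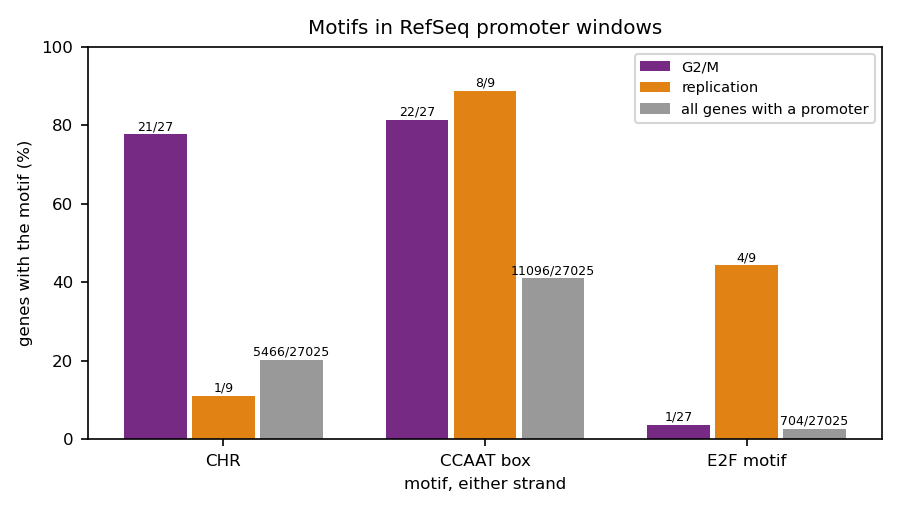
Share of genes whose RefSeq promoter window holds each motif on either strand, in percent (y axis), for G2/M members, replication members and all genes with a window. Numbers over the bars are genes with the motif of genes with a window. The CHR bar is at 77.8% for G2/M members and at 20.2% for all genes.

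The first comparison asked what TAC changed in WT hearts, with 2 TAC libraries. No member was called, where 0.706% of all tested genes were, and no member had an adjusted p under 0.05, where 4.54% did. The unadjusted p was under 0.05 for 6 members (Cenpf, Hmmr, Ccnd2, Ccnb1, Mcm5 and Nuf2), or 13.0% against 22.0% of all tested genes, and DESeq2 on all groups called Cenpf. The log2 fold change was above 0 in 38 of 46 members, against 46.5% of all tested genes, with a median of 0.20 against -0.023. The G2/M median of 0.35 was 0.21 without WT-TAC replicate 3 and 0.15 over the members with a mean CPM of at least 1. Both TAC libraries were above all Sham libraries in 15 members, or 32.6%, against 19.2% of all tested genes, and below all of them in none, against 20.0%. All 4 genes of the mitotic cyclins and their kinase were among the 15: Ccna2, Ccnb1, Ccnb2 and Cdk1. Ccnb1, which encodes cyclin B1, was at 0.344 to 0.490 CPM in WT-Sham and at 1.03 and 0.916 CPM in WT-TAC (log2 fold change 1.22 ± 0.42, SE; edgeR adjusted p = 0.0998). When edgeR was fitted on the 2 WT groups alone, Ccnb1 (adjusted p = 0.0197) and Hmmr (adjusted p = 0.034) were called. The share of all tested genes called in that fit was not counted, and 0.706% belongs to the fit on all groups.

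The second comparison asked the same of HCN4F hearts, with 4 libraries in each group. The 1 member called higher, Hmmr, and the 1 called lower, Cenpf, stood against 1.58% and 1.16% of all tested genes, or 2.75% in both directions. The 3 members with an adjusted p under 0.05 (those 2 and Ccnd2) were 6.52% of the set, against 13.6% of all tested genes. The log2 fold change was above 0 in 40 of 46 members, against 48.9%, with a median of 0.35 against -0.0067. Only Ccnd2 had all TAC libraries above all Sham libraries, against 7.95% of all tested genes, and only Cenpf had them below, against 7.16%. The unadjusted p was under 0.05 for 7 members, or 15.2% against 28.3% of all tested genes. By class, the medians were 0.39 for G2/M, 0.15 for replication and 0.45 for G1/S. The G2/M median was 0.21 without HCN4F-TAC replicate 1, 0.24 without replicate 4, 0.25 without HCN4F-Sham replicate 3 and 0.59 without HCN4F-Sham replicate 1. This comparison turned on single libraries. Without HCN4F-Sham replicate 1, the library with the highest mitotic levels of its group, 6 members were called, or 13% against 2.87% of all tested genes in that fit: Cenpf, Hmmr, Bub1, Kif2c, Rrm2 and E2f1. With HCN4F-Sham replicate 3 or 4 or HCN4F-TAC replicate 4 left out, none was called, against 2.63%, 2.43% and 2.42% of all tested genes. Leaving out HCN4F-TAC replicate 1 left Cenpf, and leaving out replicate 2 or 3 left Hmmr, against 2.4%, 1.79% and 3.59% of all tested genes.

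The third comparison set HCN4F against WT hearts after Sham surgery. No member was called, where 0.209% of all tested genes were, and none had an adjusted p under 0.05, where 0.471% did. The unadjusted p was under 0.05 for 19 members, or 41.3%, against 15.2% of all tested genes, and 18 of these had values above 0. The log2 fold change was above 0 in 44 of 46 members, against 51.1%, with a median of 0.40 against 0.0048. In 12 members, or 26.1%, all HCN4F-Sham libraries were above all WT-Sham libraries, against 3.89% of all tested genes, and in none were they below, against 4.67%. The smallest adjusted p was that of Mcm5, a subunit of the replicative helicase (0.0871 by edgeR and 0.0136 by DESeq2 on all groups). Mcm5 was at 3.70, 2.72, 2.87 and 2.78 CPM in WT-Sham replicates 1 to 4 and at 6.55, 5.89, 4.09 and 4.68 CPM in HCN4F-Sham, with a log2 fold change of 0.81 ± 0.21 (SE). All 6 helicase subunits had values above 0 (0.22 to 0.81), and 4 of them had groups that did not overlap.

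By class, the medians in this comparison were 0.48 for G2/M, 0.32 for replication and 0.33 for G1/S. Cdk1 was at 0.574 to 0.776 CPM in WT-Sham and at 2.00, 1.51, 0.795 and 1.51 CPM in HCN4F-Sham replicates 1 to 4 (log2 fold change 1.06 ± 0.36, SE; edgeR adjusted p = 0.183). Cdc20, the activator of the anaphase-promoting complex, was at 1.53 to 2.21 CPM in WT-Sham and at 4.29, 3.70, 2.49 and 2.54 CPM in HCN4F-Sham (log2 fold change 0.74 ± 0.23, SE; edgeR adjusted p = 0.141). Groups did not overlap for either gene, though replicate 3 of HCN4F-Sham lay close to WT-Sham for Cdk1. Cdc20 overlaps Elovl1 on the opposite strand, and without knowledge of strand their reads cannot be told apart there. With DESeq2 fitted on the 2 Sham groups alone, Cdk1 (log2 fold change 1.07, adjusted p = 0.0414) and Rrm2, a subunit of the enzyme that makes deoxynucleotides (1.04, adjusted p = 0.0416), were called. How many of all genes were called in that fit was not counted. For the G2/M median, leaving out HCN4F-Sham replicate 1 gave 0.30 while leaving out replicate 3 gave 0.62.

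The fourth comparison set HCN4F against WT hearts after TAC. No member was called, where 0.0719% of all tested genes were, and none had an adjusted p under 0.05, where 0.111% did. The log2 fold change was above 0 in 45 of 46 members, all but Cenpf, against 50.7% of all tested genes, with a median of 0.49 against 0.0036. The unadjusted p was under 0.05 for 8 members, or 17.4% against 12.5% of all tested genes. In 11 members, or 23.9%, all HCN4F-TAC libraries were above both WT-TAC libraries, against 11.3% of all tested genes, and in none were they below, against 11.0%. The smallest adjusted p was that of Mcm6 (0.19), at 6.61 and 7.56 CPM in WT-TAC and 11.2, 9.58, 7.70 and 11.4 CPM in HCN4F-TAC. Of the 11, 7 were G2/M members, among them Cdk1 (0.986 and 1.2 CPM in WT-TAC). With HCN4F-TAC replicate 3 left out, Mcm6 had an adjusted p of 0.0231 (log2 fold change 0.59). The G2/M median of 0.54 was 0.34 without HCN4F-TAC replicate 1 and 0.72 without replicate 2.

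The response to TAC was not shown to differ between the genotypes for any member. In the test of the difference between the TAC responses, no member had an adjusted p under 0.05 with edgeR or DESeq2, as for all tested genes in edgeR (0%), and no member had an unadjusted p under 0.05. The smallest adjusted p among members was 0.614. With 2 WT-TAC libraries, the standard error of this difference was 0.53 for Hmmr and 0.50 for Mki67 on the log2 scale. Differences of that size were not detectable, and larger ones did not pass either. The members' fitted differences ran from -1.03 to 0.74.

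**Figure D4:**
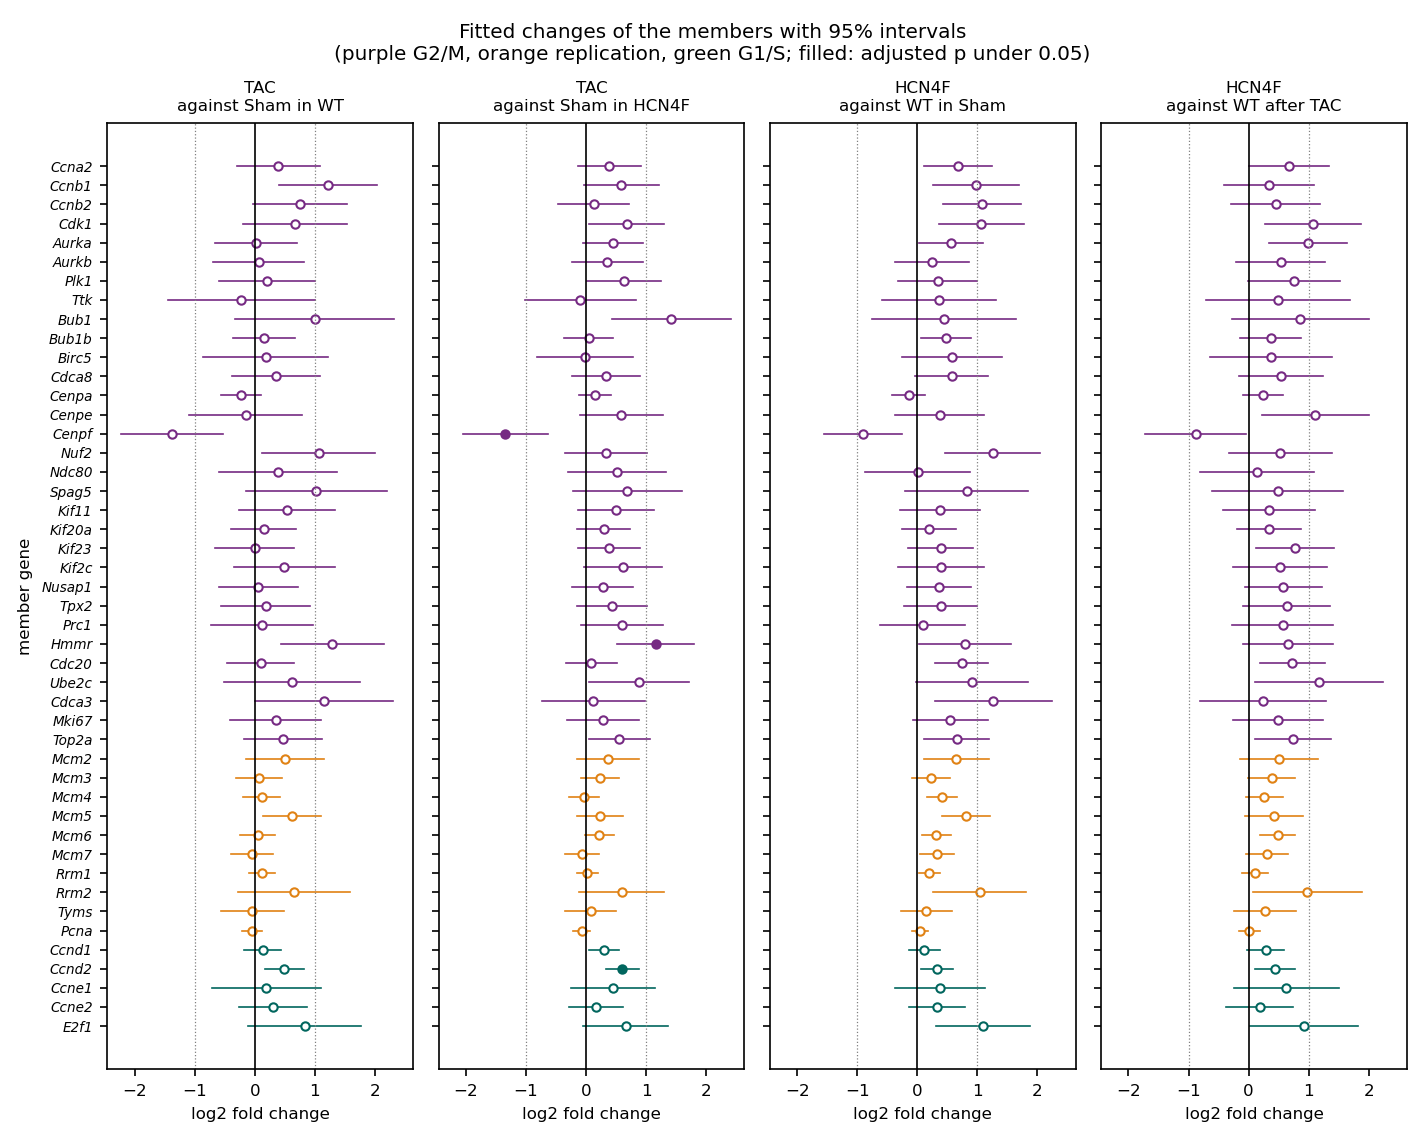
Fitted log2 fold change (x axis) of each of the 46 members (rows) in the 4 comparisons, with 95% intervals. Purple marks G2/M, orange replication and green G1/S, filled points have an adjusted p under 0.05 and dotted lines stand at -1 and 1. Filled points are Cenpf, Hmmr and Ccnd2 for TAC in HCN4F, and 45 of 46 points are above 0 for HCN4F against WT after TAC.

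The lowest members of each class passed in none of the comparisons. Ttk was at 0.115 to 0.457 CPM in WT-Sham, 0.217 to 0.502 CPM in HCN4F-Sham, 0.246 and 0.200 CPM in WT-TAC and 0.141 to 0.569 CPM in HCN4F-TAC. Tyms, which makes thymidylate, was at 0.980 to 1.26, 0.866 to 1.46, 1.36 and 0.916, and 1.06 to 1.58 CPM in the same order of groups. Ccne1, which encodes cyclin E1, was at 0.612 to 0.882, 0.527 to 1.74, 0.534 and 1.06, and 0.883 to 1.95 CPM. All groups of these 3 genes overlapped in all comparisons. Among the other G1/S genes, E2f1, which encodes the factor that switches on S phase genes, was at 1.11 to 1.56 CPM in WT-Sham, at 5.19, 2.65, 1.34 and 1.93 CPM in HCN4F-Sham, at 1.93 and 2.63 CPM in WT-TAC and at 4.69, 2.93, 3.00 and 6.96 CPM in HCN4F-TAC. It passed in none of the comparisons with all libraries, and HCN4F-Sham replicate 1 was above HCN4F-TAC replicate 1.

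Genes around the set were taken from 5 lists of 125 genes, of which 118 were tested. Of the 13 tested among the other cyclins, kinases and their phosphatases, a list that also held Myc, Myc alone was called, for TAC in WT and for HCN4F against WT in Sham, where 0.706% and 0.209% of all tested genes were. Myc, a transcription factor that drives growth and entry into the cell cycle, was at 2.37, 2.79, 1.68 and 2.81 CPM in WT-Sham, 9.98, 6.25, 5.03 and 6.40 CPM in HCN4F-Sham, 12.1 and 6.64 CPM in WT-TAC and 10.3, 11.3, 9.61 and 12.5 CPM in HCN4F-TAC. All other groups were above WT-Sham, and Myc rose with TAC in WT hearts (log2 fold change 1.93 ± 0.27, SE; edgeR adjusted p = 0.00263) and exceeded its WT level in the HCN4F hearts after Sham surgery (1.51 ± 0.24, SE; edgeR adjusted p = 0.0123). In HCN4F hearts TAC gave 0.66 ± 0.21 (SE, edgeR adjusted p = 0.0511), and the difference between the TAC responses did not pass (edgeR adjusted p = 0.407).

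No inhibitor or RB, E2F or DREAM regulator was called with all libraries. Of 6 tested inhibitors of cyclin-dependent kinases, 2 had an adjusted p under 0.05 after TAC in HCN4F hearts, both lower, where 6.41% of all tested genes passed and were lower: Cdkn1c, which encodes p57 (log2 fold change -0.59 ± 0.13, SE; edgeR adjusted p = 0.00822), and Cdkn1b, which encodes p27 (-0.30 ± 0.08, SE; edgeR adjusted p = 0.0208). Cdkn1a, which encodes p21, was at 126 CPM in HCN4F-Sham replicate 1 and at 25.7 to 42.4 CPM in replicates 2 to 4, and passed in none of the comparisons with all libraries. Without HCN4F-Sham replicate 1, Cdkn1a was called higher after TAC in HCN4F hearts (log2 fold change 1.33, edgeR adjusted p = 0.018) and lower in HCN4F than in WT after Sham surgery (-1.51, edgeR adjusted p = 0.0289). Of 18 regulators of the RB, E2F and DREAM families, 2 passed the adjusted p after TAC in WT and 2 in HCN4F, against 4.54% and 13.6% of all tested genes. E2f3 was higher after TAC in WT (0.73 ± 0.16, SE; edgeR adjusted p = 0.021) and in HCN4F (0.55 ± 0.13, SE; edgeR adjusted p = 0.0108), Rb1 was higher in WT (0.36 ± 0.10, SE; edgeR adjusted p = 0.0429) and Tfdp2, a partner of E2F factors, was lower in HCN4F (-0.53 ± 0.12, SE; edgeR adjusted p = 0.00699).

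Other genes of replication and mitosis were counted in the same way. Of 35 tested replication genes outside the set, 4 had an adjusted p under 0.05 after TAC in HCN4F hearts, all lower, where 6.41% of all tested genes passed and were lower: Dut (-0.55), Pola1 (-0.56), Pold1 (-0.34) and Gmnn (-0.28), on the log2 scale. Lig1, the ligase that joins Okazaki fragments, was higher in HCN4F than in WT hearts after Sham surgery (0.56 ± 0.12, SE; edgeR adjusted p = 0.0484). Of 46 other mitotic genes, only Pttg1, which encodes securin, passed after TAC in HCN4F hearts, and it was lower (-0.29, edgeR adjusted p = 0.027). Without HCN4F-Sham replicate 1, Spc25 (1.55, edgeR adjusted p = 0.00817), Ckap2l (1.1, edgeR adjusted p = 0.0331) and Iqgap3 (1.18, edgeR adjusted p = 0.0231) were called higher there, where 2.87% of all tested genes were called. These 46 had log2 fold changes above 0 in 31 genes for TAC in WT, in 35 for TAC in HCN4F, in 41 for HCN4F against WT in Sham and in 41 for HCN4F against WT after TAC, with medians of 0.32, 0.26, 0.46 and 0.49. The 35 replication genes had medians of 0.0097, -0.030, 0.21 and 0.17 in the same order.

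Markers of other cell types moved with some of these libraries, and their part in the levels of the cell cycle genes was not tested. The activated fibroblast markers had the most calls of these lists: their 6 genes summed to 38.0 to 41.9 CPM in WT-Sham, 38.5 to 52.1 CPM in HCN4F-Sham, 60.4 and 59.4 CPM in WT-TAC and 192, 300, 78.8 and 239 CPM in HCN4F-TAC replicates 1 to 4. Of the 6, 5 were called higher after TAC in HCN4F hearts, where 1.58% of all tested genes were. Fap was not called there (log2 fold change 0.26, edgeR adjusted p = 0.473), and none of the 6 was called in another comparison. Postn was at 92.8, 155, 37.5 and 96.2 CPM in HCN4F-TAC replicates 1 to 4, and Cthrc1 was at or near 0 in the Sham groups (0 to 0.274 CPM). Replicate 2 had the highest sum of these markers and the lowest sum of the 29 G2/M members of its group. In HCN4F-Sham replicate 1, the highest library of its group for G2/M members, the sum was 38.5 CPM, within the WT-Sham range. That library had the highest macrophage sum (170 CPM) and monocyte and neutrophil sum (5.35 CPM) of the 8 Sham libraries, and the lowest endothelial (697 CPM) and smooth muscle and pericyte (658 CPM) sums of all 14. The 7 cardiomyocyte markers summed to 67735 to 70202 CPM in WT-Sham, 59567 to 63402 CPM in HCN4F-Sham, 63012 and 62636 CPM in WT-TAC and 50327 to 56693 CPM in HCN4F-TAC, where every library was below all libraries of the other groups. None of these 7 was called in any comparison, but 5 passed the adjusted p after TAC in HCN4F hearts, where 13.6% of all tested genes did. Tnni3 (-0.59), Myl2 (-0.30), Myh6 (-0.27) and Tnnt2 (-0.23) were lower and Actc1 (0.29) was higher, on the log2 scale. In WT hearts Tnni3 (-0.52) and Tnnt2 (-0.39) passed, where 4.54% of all tested genes did. The mitochondrial share was 19.6 to 23.1% in WT-Sham, 17.1 to 21.4% in HCN4F-Sham, 18.4 and 20.0% in WT-TAC and 13.9 to 18.6% in HCN4F-TAC.

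**Figure D5:**
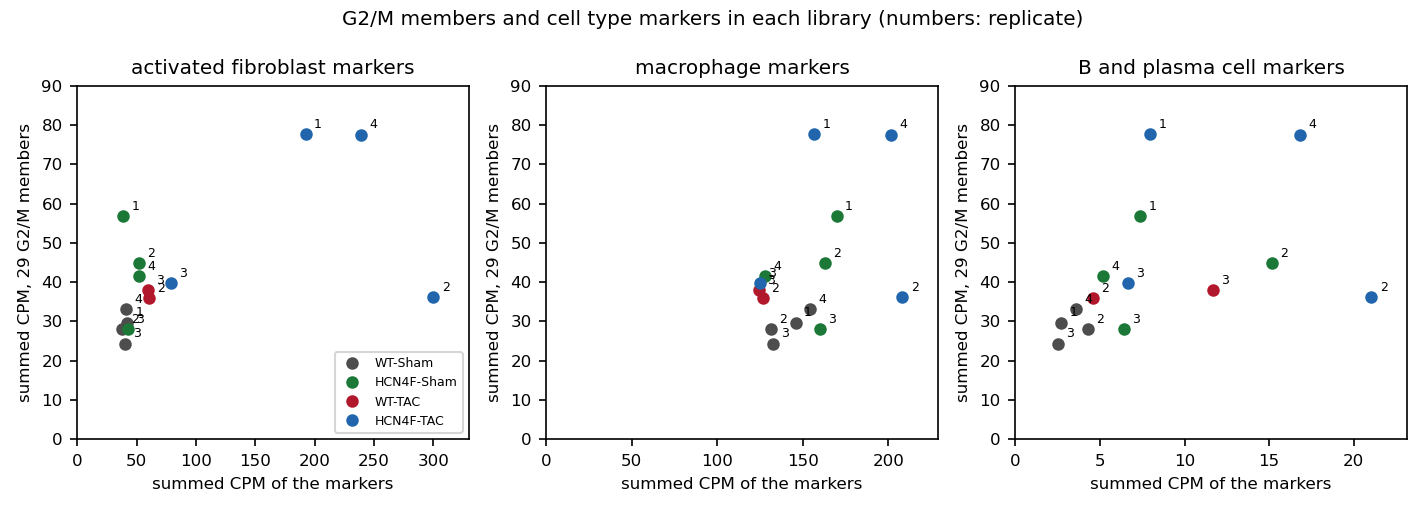
Summed CPM of the 29 G2/M members other than Cenpa and Cenpf (y axis), a sum that orders the groups differently from that over all 31, against the summed CPM of the markers of activated fibroblasts, macrophages, and B and plasma cells (x axes), 1 point per library with its replicate number, coloured by group. HCN4F-TAC replicates 1 and 4 are highest on the y axis, and HCN4F-TAC replicate 2 is highest on the x axis in all 3 panels.

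Markers of immune cells, fibroblasts and endothelial cells were summed in the same way. The 7 macrophage markers summed to 131 to 154 CPM in WT-Sham, 128 to 170 CPM in HCN4F-Sham, 127 and 124 CPM in WT-TAC and 125 to 208 CPM in HCN4F-TAC, and none of the 7 was called in any comparison. The 6 B and plasma cell markers summed to 2.52 to 4.28 CPM in WT-Sham and 5.16 to 15.2 CPM in HCN4F-Sham, 4.60 and 11.7 CPM in WT-TAC and 6.64 to 21.0 CPM in HCN4F-TAC. Cd79a alone was called, higher after TAC in HCN4F hearts (log2 fold change 1.5, edgeR adjusted p = 0.00699), where 1.58% of all tested genes were. The 5 monocyte and neutrophil markers summed to 1.38 to 3.79 CPM in WT-Sham, 3.02 to 5.35 CPM in HCN4F-Sham, 2.92 and 3.01 CPM in WT-TAC and 5.04 to 5.64 CPM in HCN4F-TAC, so that HCN4F-TAC lay above WT-TAC. Of the 4 tested, S100a8 (log2 fold change 2.73) and S100a9 (2.91) were called higher after TAC in WT hearts, where 0.445% of all tested genes were. Ly6c2 (-0.90) and Ccr2 (-0.46) did not pass. The 6 T and NK cell markers summed to at most 1.61 CPM in any library. The 7 fibroblast markers summed to 672 to 688 CPM in WT-Sham, 648 to 826 CPM in HCN4F-Sham, 706 and 602 CPM in WT-TAC and 774 to 1204 CPM in HCN4F-TAC. Col1a1 alone of them was called, higher after TAC in HCN4F hearts (log2 fold change 1.14, edgeR adjusted p = 0.00125), where 1.58% of all tested genes were. The 6 endothelial markers summed to 697 to 1265 CPM over all libraries.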

How the data were processed

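RNA sequencing of left ventricular tissue was analysed in 14 libraries of 4 groups. The authors deposited raw counts per gene and library, which are not normalized. The submitters' processing notes name the genome build GRCm38. The aligner, the counting program and the use of strand are not given in the sources used here, so reads of overlapping genes on opposite strands may be mixed. Of the members, 17 overlap another annotated gene, and for 9 of them that gene held at least 10% as many reads (among them Cdc20, Mcm7 and Ccna2). Left out were 2 columns with WT-TAC names that fit none of the samples given, so that WT-TAC has 2 libraries here.

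Genes were kept with filterByExpr by group (15292 of 49315) and scaled by TMM in edgeR 4.0.16 (R 4.3.3). The 4 groups were fitted in 1 model and compared with the quasi-likelihood test (robust, Benjamini-Hochberg adjustment over all tested genes). Alternatives were DESeq2 1.42.0, its size factors, fits on the compared groups alone, other filters, non-robust estimation, glmTreat (a test against a minimum fold), a replicate block and leaving out each library. CPM carry no pseudocount except in the heat map (0.1). Exon lengths and gene positions were taken from GENCODE release M21, which holds 99.3% of the table's gene IDs. The steps were tested on simulated data with 200 changed genes. Python 3.11.15 with matplotlib 3.10.9 made the figures.

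Given with every library were Mki67, Top2a, the members called by edgeR or DESeq2 on all groups and those with an adjusted p under 0.05. The members with the highest and lowest mean CPM of each class were also named by rule. Of each related list, the called genes, Cdkn1a and up to 4 genes by smallest p in HCN4F hearts were eligible. Other genes named, and the promoters other than those of Cenpf and Hmmr, were chosen after their values were seen. The members and all lists were chosen with earlier results of these data known.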

Additional observations from a re-analysis of the deposited data

Results flagged for a closer look

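Among 186 groups of 4 libraries examined for a library far from the other 3 (Dixon's test at the 95% level, by which chance marks about 1 group in 20), 8 held such a library. Bub1 was at 0.392 CPM in WT-Sham replicate 4 and at 0.109 to 0.115 CPM in the other 3. Ndc80 was at 0.702 CPM in WT-Sham replicate 1 against 0.306 to 0.359 CPM, and Mcm5 at 3.70 CPM in the same library against 2.72 to 2.87 CPM. In HCN4F-Sham replicate 1, Aurka was high (1.66 CPM against 1.12 to 1.14 CPM), Tyms was low (0.866 CPM against 1.39 to 1.46 CPM) and the summed erythroid markers were low (70.9 CPM against 179 to 196 CPM). The summed fibroblast markers were at 688 CPM in WT-Sham replicate 4 against 672 to 674 CPM. The summed smooth muscle and pericyte markers were at 681 CPM in HCN4F-TAC replicate 2 against 890 to 897 CPM.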

How the results depend on the processing

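Members called for TAC in WT (0) numbered 1 with DESeq2 on all groups (Cenpf), 2 with edgeR on the compared groups (Hmmr and Ccnb1) and 1 without a filter (Ccnb1). DESeq2 gave Hmmr no adjusted p for TAC in WT, on all groups (log2 fold change 1.32) or on the compared groups (1.34). Counts from DESeq2 cover only the members to which it gave an adjusted p. Members called for TAC in HCN4F (2) numbered 1 with edgeR on the compared groups (Cenpf, with Hmmr at an adjusted p of 0.0653), 2 without a filter (Hmmr and Bub1, with Cenpf at 0.0716), 1 at a mean CPM of at least 1, which removes Hmmr, 0 with glmTreat and 0 to 6 with single replicates left out. Members called for HCN4F against WT in Sham (0) numbered 2 with DESeq2 on the compared groups, and no alternative with the fold threshold called a member for HCN4F against WT after TAC or in the interaction. By adjusted p alone, Mcm6 passed after TAC without HCN4F-TAC replicate 3 (0.0231). Related genes called for TAC in WT (1) numbered 2 with either use of DESeq2, 3 with edgeR on the compared groups, 3 by adjusted p alone, 0 with glmTreat and 1 to 2 with replicates left out. Related genes called for TAC in HCN4F (0) numbered 1 without a filter, 9 by adjusted p alone and 0 to 4 with replicates left out. Related genes called in Sham (1) numbered 2 with either use of DESeq2, without a filter and by adjusted p alone, 0 with glmTreat and 1 to 2 with replicates left out. The causes were not tested.

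Samples with the same replicate number did not deviate together (correlations -0.12 to 0.16), so the numbers do not pair them. With a replicate block, 2 members were called for TAC in HCN4F (Hmmr and Bub1, with Cenpf at an adjusted p of 0.0634), 2 related genes for TAC in WT and 1 for TAC in HCN4F. Under the block Ttk turned to 0.32 for TAC in WT and to -0.022 for HCN4F against WT after TAC, and Pcna to -0.0064 in the latter. With replicates left out, values near 0 also changed sign. For TAC in WT, Tyms ranged from -0.33 to 0.23, Ttk from -0.45 to 0.24, Pcna from -0.12 to 0.041 and Ccne1 from -0.42 to 0.57. For TAC in HCN4F, Tyms ranged from -0.071 to 0.18 and Ttk from -0.51 to 0.16. For HCN4F against WT, Pcna ranged from -0.011 to 0.079 and Ccne1 from -0.12 to 0.57 in Sham, and Pcna from -0.066 to 0.097 and Tyms from -0.0063 to 0.56 after TAC. Cenpf and Ccnd2 kept their direction for TAC in HCN4F under every alternative run, and Hmmr under all but the filter at a mean CPM of 1, which gives it no value. DESeq2's size factors and non-robust estimation changed no count of calls. Low counts of mitotic members such as Hmmr and Ttk limit what can be detected.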
